A study of Mus musculus with 4 samples.

Results

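The cells described here are the Pi16-negative fibroblasts of the SHF baseline library: 417 cells of the ascending aorta, chosen by their own counts of 8 genes. A barcode was taken when it had at least 500 detected genes and at most 10% of its UMIs (unique molecular identifiers, each a captured transcript) from mitochondrial genes. It also had at least 1 UMI of Pdgfra, at least 5 of Dcn, at most 2 of Myh11, none of Ptprc, Pecam1 or Pi16, and fewer than 2 each of Comp and Chad. These cells made up 12.8% of the 3262 fibroblasts that passed the same gate without the limits on Pi16, Comp and Chad (exact 95% binomial interval 11.7 to 14.0%), and 4.86% of the 8579 cells of that library past the filter. The other 2845 fibroblasts were 2645 with at least 1 Pi16 UMI and 200 with at least 2 UMIs of Comp or Chad. The 2303 smooth muscle cells of the library had at least 5 UMIs of Myh11 and none of Pdgfra.

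This library, like the others used here, came from male Mef2c-mTmG mice, in which a membrane-bound red reporter is replaced by a green one in cells with Cre recombination, and the name of the strain ties it to Mef2c. Aortic tissue was digested, and live single cells were sorted by lineage and captured with 10x Chromium 3' v3 chemistry. The study asked how cells of second heart field (SHF) origin and of other origins differ in their response to angiotensin II (AngII). Besides the untreated SHF baseline library, an SHF library and a CNC library (an abbreviation that the labels do not spell out) from mice infused with AngII for 3 days were used, and a CNC baseline sample was not analysed here. The labels give no age and no number of mice for any library. Each group was 1 library, so no difference has a replicate check and no test was made. All intervals cover counting error only, at the 95% level.

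Aortic fibroblasts lie mainly in the adventitia, the outer coat of the vessel, where they build collagen and elastic matrix and send signals to smooth muscle and immune cells. Pi16, a secreted peptidase inhibitor, marks a widely shared fibroblast type of the outer adventitia that also carries Cd248, Ly6c1, Sema3c and Anxa3. Other fibroblasts of the vessel wall lack Pi16 and carry other matrix and signalling genes.

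The fibroblast identity held for the pooled cells. Cygb, a globin of fibroblasts, was at 891 CPM (UMIs of the gene in the pooled cells, scaled to a total of 1000000 UMIs) against 1099.7 in Pi16-positive fibroblasts and 13.4 in smooth muscle cells. Abca8a, a lipid transporter, was at 619 against 692 and 9.06 CPM. Angptl7, a secreted angiopoietin-like factor, was the marker that stood apart: 196 CPM against 379 in Pi16-positive cells, 999 in Comp- or Chad-positive cells and 4.81 in smooth muscle cells. Lumican (Lum), a small proteoglycan of collagen fibrils, was at 2763 CPM against 101 in smooth muscle cells. It was 1 of 14 general fibroblast genes with a mean of 10 CPM or more. Of these, 13 were higher than in smooth muscle cells by 2-fold or more. Against the other fibroblasts 3 were lower by 2-fold or more (Mfap5, Clec3b and Medag) and none was higher. The genes with the most UMIs were Malat1, Mgp, Cst3, Apoe, Sparc, Fth1, Col3a1, Igfbp7, Tpt1 and Col1a2, of which Malat1 reached 30921 and Col3a1 7391 CPM.

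Markers of other cell types were low but not all absent. The 9 smooth muscle markers outside the gate summed to 2700 CPM (2646 to 2754), against 1451 in the other fibroblasts and 60350 in smooth muscle cells. The 10 macrophage markers outside the gate summed to 23.8 CPM against 9.48 in the other fibroblasts, with Adgre1 and Mrc1 at 0. The 7 lymphocyte markers were all at 0, the 9 endothelial markers summed to 70.6 CPM against 43.8, the 10 mesothelial markers to 8.85 against 7.74, and the 8 pericyte markers to 624 against 456. Schwann markers summed to 50.1 CPM against 36.7, adipocyte markers to 30.2 against 17.2, cardiomyocyte markers to 101 against 34.1, of which Tnnt2 gave 99.6, and red cell markers to 0.830 against 0.491. Scrublet, a doublet caller, marked 2 of the 417 cells (0.480%), and doublets were not removed.

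The limits of the gate cut through continuous counts. Among fibroblasts below the Comp and Chad limits, 417 had no Pi16 UMI, 230 had 1, 158 had 2 and 159 had 3, and the median of the Pi16-positive cells was 12. At the other limits, 169 members had the minimum of 1 Pdgfra UMI, 6 had fewer than 10 Dcn UMIs beside a median of 114, 7 had 2 Myh11 UMIs, 20 had 1 Comp UMI and 3 had 1 Chad UMI. A further 296 cells missed the gate only for want of a Pdgfra UMI, and 102 only through 3 or more Myh11 UMIs. The 417 cells held 3614715 UMIs. Depth was close to that of the other fibroblasts pooled: a median of 8637 UMIs and 2709 genes per cell, against 9301 and 2832. Smooth muscle cells were deeper, at 12485 and 3188. The share of Pi16-negative cells was 13.2%, 15%, 13.4% and 9.56% in the depth quartiles from shallow to deep. It was 10.9% among cells with 10000 or more UMIs. When every cell was thinned to 5000 UMIs before the gate, 360 of 2242 fibroblasts (16.1%) were Pi16-negative. The baseline library shared 29 and 34 barcodes with the SHF and CNC AngII libraries, 4 and 3 of them from members.

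**Figure D1:**
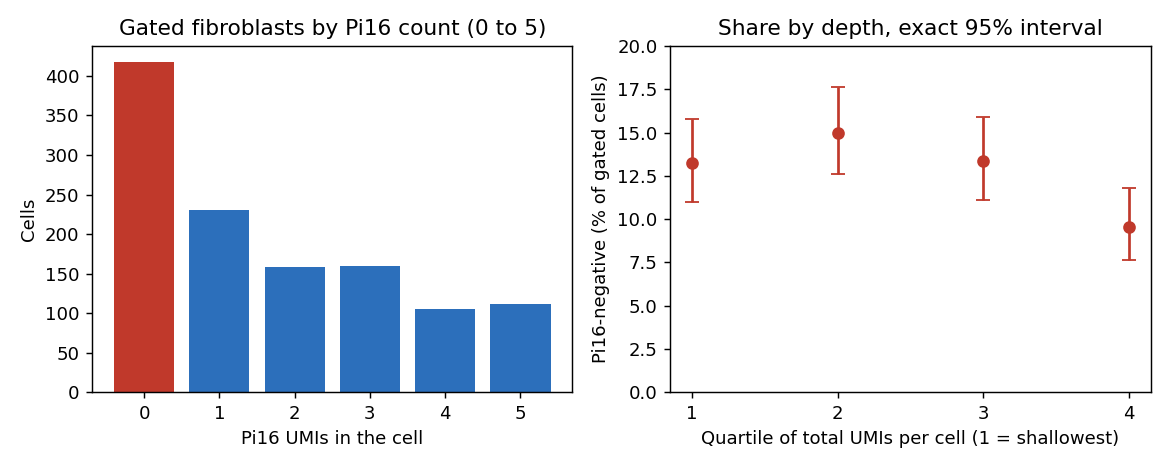
Left, number of gated SHF baseline fibroblasts below the Comp and Chad limits by their Pi16 UMI count from 0 to 5; red, the 417 Pi16-negative cells; blue, the Pi16-positive cells. Right, share of Pi16-negative cells (percent of gated fibroblasts) in each quartile of total UMIs per cell with its exact 95% interval; the points run from 13.2% in the shallowest to 9.56% in the deepest quartile.

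Against all other fibroblasts of the library, few genes were far apart. Of 2854 genes with a mean of at least 50 CPM over both sets, 52 (1.82%) were higher in the Pi16-negative cells by 2-fold or more and 57 (2%) were lower, on a log2 scale with 1 CPM added. With a minimum of 10 CPM the counts were 167 (2.11%) and 149 (1.89%) of 7900 genes. The median absolute log2 ratio was 0.16. Pi16 at 0 chose these cells, so genes that go with Pi16 had to differ, and the ratios are a description.

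Of the 12 genes furthest below the other fibroblasts, 7 (Ly6c1, Cd248, Anxa3, Sema3c, Mfap5, Cd55 and Ly6a) were in the list of Pi16-type adventitial genes and 5 were not, among genes that 10% or more of the higher set's cells carried. Ly6c1, a surface protein of the Ly6 family, was at 11.1 CPM against 246 in Pi16-positive and 118 in Comp- or Chad-positive cells, a log2 ratio of -4.30 to all other fibroblasts (-4.90 to -3.97). Cd248 (endosialin), a surface glycoprotein of stromal cells, was at 16.9 against 265 and 85.7 CPM. Anxa3, a calcium-dependent phospholipid-binding protein, was at 43.2 against 512 and 220.1 CPM. All 3 genes were lower than in both kinds of other fibroblast. Igfbp5, a binding protein of insulin-like growth factors, was at 191 CPM against 1645 in Pi16-positive cells (log2 ratio to all others -3.05, -3.17 to -2.95). Sema3c, a secreted guidance factor, was at 27.9 against 231 CPM. Matrix genes were in the same set: fibronectin (Fn1) at 78.9 against 475 CPM, fibulin 2 (Fbln2) at 99.9 against 576, the microfibril protein Mfap5 at 597 against 3175, and the hyaluronan synthase Has1 at 17.2 against 104. The BMP antagonist Nbl1 was at 69.2 against 369 CPM, the complement inhibitor Cd55 at 39.8 against 199, and Ly6a (Sca-1) at 236 against 1023. In cells thinned to 5000 UMIs, 2.76% of Pi16-negative cells had a Ly6c1 UMI against 31.7% of Pi16-positive fibroblasts and 0.532% of smooth muscle cells. The Pi16-type list held 20 genes chosen for this cell type, with earlier results of these data known. It had 19 genes of 10 CPM or more: 17 were lower by 2-fold or more and none was higher. The median log2 ratio was -2.22, beside -0.02 for all genes past that minimum, of which 1.89% were lower by 2-fold or more. Pi16 at 0 chose the cells, so genes of this list had to be lower. These counts, with the 7 of 12 above, are a description only.

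The genes furthest above the other fibroblasts, chosen in the same way, were of several kinds. Igfbp3, another binding protein of insulin-like growth factors, was at 418 CPM against 61.3 in Pi16-positive cells, 101 in Comp- or Chad-positive cells and 1.78 in smooth muscle cells (log2 ratio to all other fibroblasts 2.68, 2.60 to 2.80). Ahsg, the mineral-binding glycoprotein fetuin A, was at 132 against 19.7, 66.5 and 1.35 CPM. The iron carrier transferrin (Trf), whose reads share a strand with an overlapping annotated gene, was at 108 against 16.8, 67.4 and 2.77 CPM. Fbln7, a fibulin, was at 118 CPM against 31.1 in Pi16-positive cells and 1.65 in smooth muscle cells. These 4 genes were at under 3 CPM in smooth muscle cells and lower in both kinds of other fibroblast.

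Gucy1a3, a subunit of the nitric oxide receptor, was at 108 CPM against 24.7 in Pi16-positive cells, but smooth muscle cells had 255. Sost (sclerostin), a secreted Wnt antagonist, was at 85.5 against 21.4 CPM, with 779 in smooth muscle cells. Rgs5, a regulator of G-protein signalling known from pericytes, was at 104 against 26.8 CPM, with 93.1 in smooth muscle cells. The remaining 5 of the 12 highest genes, Tbx20, Cox4i2, Pdlim3, Postn and Wif1, came mostly from 1 sub-cluster of the cells and are described with it. Outside those 12, Angpt2, a ligand of the Tie2 receptor whose mean was below the minimum of 50 CPM, was at 81.9 against 13.6 CPM, with 22.2 in smooth muscle cells. Apoe, the lipoprotein component, was the gene with the most UMIs among those past 2-fold, at 11659.9 CPM against 3311 in Pi16-positive, 6474 in Comp- or Chad-positive and 858 in smooth muscle cells (log2 ratio 1.71, 1.70 to 1.73).

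**Figure D2:**
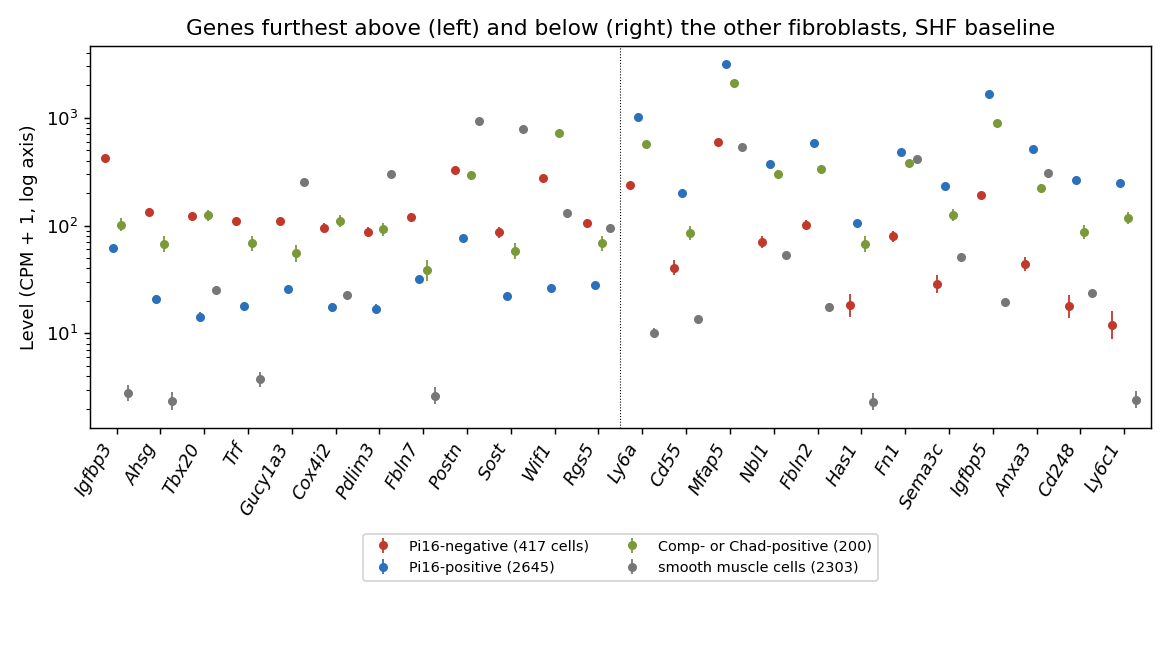
Level of the 12 genes furthest above and the 12 furthest below the other SHF baseline fibroblasts, in CPM + 1 on a log axis with exact Poisson intervals, for the 417 Pi16-negative cells, the 2 kinds of other fibroblast and the smooth muscle cells. Igfbp3 ran from 1.78 CPM in smooth muscle cells to 418 in Pi16-negative cells, and Ly6c1 from 11.1 in Pi16-negative to 246 in Pi16-positive fibroblasts.

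For several of these genes the levels ran on past the limit at 0 Pi16 UMIs. Apoe was at 11659.9 CPM in cells without Pi16, 9005 in the 230 cells with 1 UMI, 5738 in the 533 with 2 to 5, 3794 in the 743 with 6 to 15 and 1667 in the 1139 with 16 or more. Igfbp3 went from 418 through 214, 168 and 45.5 to 19.4 CPM over the same 5 groups, and Gucy1a3 from 108 through 104, 49.97 and 24.7 to 7.57. In the other direction, Mfap5 went from 597 through 802, 1423 and 2001 to 4552 CPM. Igfbp5 stayed between 161 and 263 CPM up to 15 Pi16 UMIs and was at 2929 in the cells with 16 or more. Cd248 had a like course, from 16.9 through 34.5, 40.5 and 56.4 to 461 CPM. Cells with 1 Pi16 UMI thus lay between the members and the rest for these genes other than Igfbp5. Their median depth was 6598 UMIs, against 8637 in the members and 11031 in the cells with 16 or more.

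The 417 cells were not 1 uniform set. Clustering on 2000 variable genes without the gate genes gave 6 sub-clusters, which are given by number and leading genes; those genes defined the sub-clusters and are described without a test. Sub-cluster 1 held 132 cells (31.7%), sub-cluster 2 had 84 (20.1%), sub-cluster 3 had 72 (17.3%), sub-cluster 4 had 58 (13.9%), sub-cluster 5 had 57 (13.7%) and sub-cluster 6 had 14 (3.36%). The 3 fibroblast markers outside the gate summed to 2232 CPM in sub-cluster 1, 1237 in 2, 445 in 3, 2285 in 4, 3153 in 5 and 264 in 6, against 27.3 in smooth muscle cells. Sub-clusters 3 and 6 were thus the lowest in these markers, and both stayed above smooth muscle cells.

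Sub-cluster 1 had a median depth of 6571 UMIs. Its leading genes were Vwc2, a secreted BMP modulator (98.2 CPM against 35.7 in the other members), Cyb5r1, the matrix protease Mmp3 (907 against 361) and Wisp2, a matricellular protein (560.1 against 235). An Mmp3 UMI was in 24.2% of its cells and 26.3% of the other members, so the higher level was not in more cells. The leading genes of sub-cluster 2 included Cytl1, the myosin light chain kinase Mylk (102 against 27.2) and the troponin Tnnt2 (211 against 65.2). Angpt2 was highest there too (165 CPM against 56.1 in the other members). Its 9 smooth muscle markers summed to 4331 CPM.

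Sub-cluster 5 was led by Cyp26b1, an enzyme that breaks down retinoic acid (132 CPM against 12.7), the matrix protein Cilp (236 against 29.2), Adamtsl1 (106 against 19.1) and the imprinted zinc finger gene Peg3 (452 against 99.9). Igfbp3 was highest there at 964 CPM. Sub-cluster 6, 14 cells, was led by 2210407C18Rik, Sncg, Cnn1, a calponin of smooth muscle (118 CPM against 5.46), and E030013I19Rik. Its Acta2 was at 6765 CPM against 694 in the other members, and its 9 smooth muscle markers summed to 16197 CPM with Actg2 at 0. Smooth muscle cells had 29247 CPM of Acta2 and 1596 of Cnn1.

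Sub-cluster 3 was led by Cd74, Npy, H2-Ab1 and Wif1, and carried most of several genes that stood high in the pooled cells. Tbx20, a T-box factor of the developing heart and valves, was at 498 CPM in its 72 cells, with a UMI in 93.1% of them, against 18.7 CPM and 8.99% in the other members. The Wnt antagonist Wif1 was at 1244 CPM against 11.6, with a UMI in 61.1% of cells against 3.48%. Postn (periostin), a matricellular protein, was at 1283 CPM, beside at most 144 in any other sub-cluster. Pdlim3 was at 299 and Cox4i2 at 340.4 CPM, beside at most 58.8 and 44.5 elsewhere. Apoe reached 26103 CPM, beside 12676 in sub-cluster 4, the next highest. Npy, a neuropeptide, was at 119 CPM and had no UMI in the other members. Gdf10, a ligand of the TGF-beta family, had no UMI in sub-cluster 3 and 571 CPM in the others. Rbp4, the retinol carrier, was at 9.06 against 2122 CPM. Matrix genes went both ways: Vcan (versican) was at 567 against 46.5 CPM and Prg4 (lubricin) at 478 against 28.2, while Col1a1 was at 1055 and Eln at 122, beside pooled values of 5033 and 1984.

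The pooled ratios of these genes rested on sub-cluster 3. Without its 72 cells, the log2 ratio to the other fibroblasts went from 2.42 to -0.22 for Tbx20, from 1.76 to -2.69 for Wif1 and from 1.79 to -0.53 for Postn. It went from 1.96 to 0.24 for Cox4i2, from 1.94 to 0.40 for Pdlim3, from 1.76 to 0.54 for Rgs5 and from 1.42 to 0.33 for Clu (clusterin). Igfbp3, Gucy1a3, Fbln7 and Sost stayed past 2-fold without it, at 2.80, 2.16, 2.20 and 2.11. Ahsg, Trf and Apoe did so with smaller ratios of 1.58, 1.21 and 1.12. Comp- or Chad-positive fibroblasts also held Tbx20 (123 CPM) and Wif1 (725 CPM). UMIs of both Wif1 and Tbx20, a pair chosen after their values were seen, were in 46 of the 417 Pi16-negative cells (11.0%), 42 of 200 Comp- or Chad-positive cells (21.0%) and 37 of 2645 Pi16-positive cells (1.40%). They were also in 252 of 2303 smooth muscle cells (10.9%). After thinning to 5000 UMIs these shares were 9.20%, 14.4%, 1.29% and 2.75%.

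**Figure D3:**
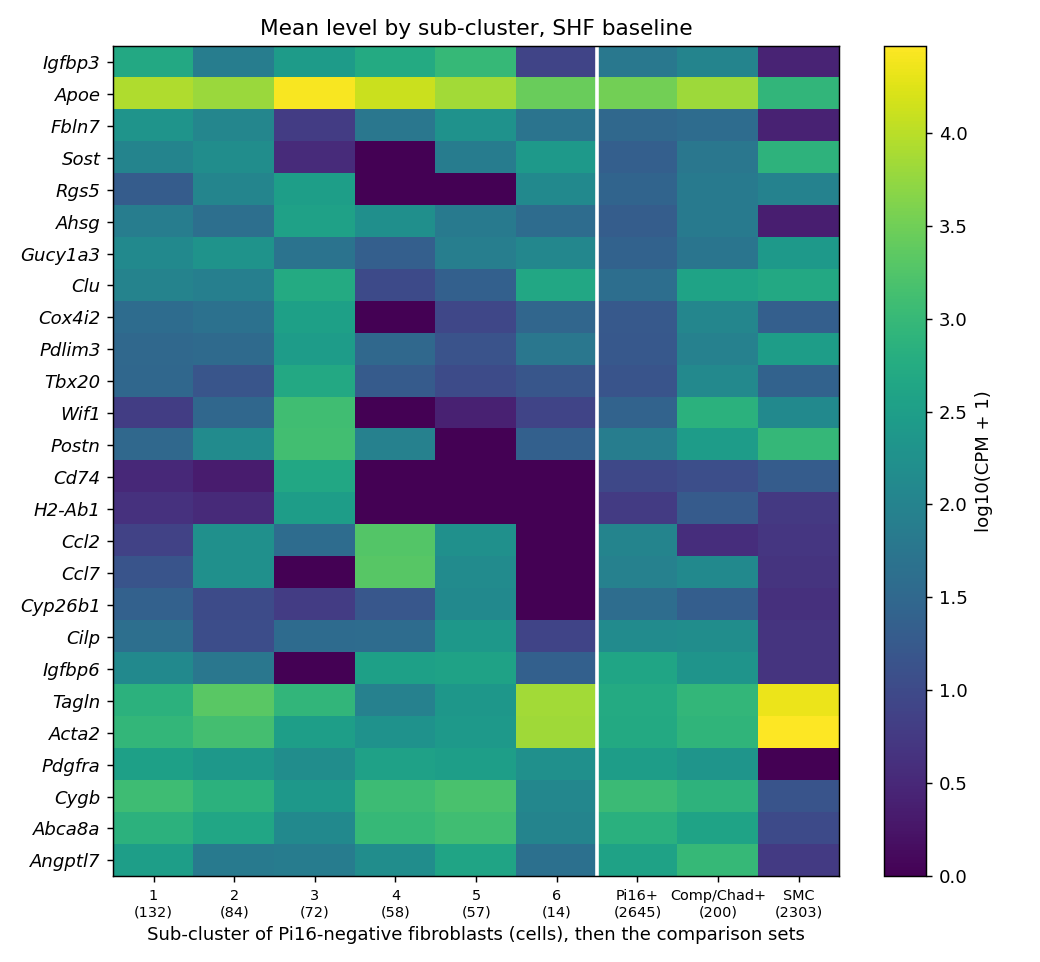
Mean level, as log10(CPM + 1), of 26 genes in the 6 sub-clusters of the Pi16-negative fibroblasts and in the 3 comparison sets of the SHF baseline library, with the number of cells below each column. Tbx20, Wif1, Postn, Cd74 and H2-Ab1 are bright in sub-cluster 3, Ccl2 and Ccl7 in sub-cluster 4, and Acta2 and Tagln in sub-cluster 6 and in smooth muscle cells.

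Genes of antigen presentation followed the same split. Of 18 genes of the MHC and interferon list past 10 CPM, 4 were higher than in the other fibroblasts by 2-fold or more (Cd74, H2-Ab1, H2-Aa and Isg15) and none was lower, with a median log2 ratio of 0.23. Cd74, the invariant chain of MHC class II, was at 474 CPM in sub-cluster 3 and at 1.06 in the other members, and 20 cells held 99.2% of its UMIs. H2-Ab1, a class II chain, was at 307 against 1.76 CPM. Without sub-cluster 3 the log2 ratios were -2.18 and -1.35, from 3.46 and 3.27. The 10 macrophage markers summed to 58.2 CPM (42.5 to 77.9) in sub-cluster 3, with Adgre1 and Mrc1 at 0, and to between 0 and 23.8 in the other sub-clusters. Scrublet marked 1 of the 72 cells. The part of macrophage RNA in these values was not tested.

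Chemokines and cytokines stood higher as a group. Of 14 list genes past 10 CPM, 7 were higher by 2-fold or more, none was lower, and the median log2 ratio was 0.69. Cxcl12, a chemokine that retains leukocytes and progenitors, was spread widely: it was at 508 CPM against 208 in Pi16-positive cells, and 62.6% of thinned cells had a UMI against 42.8% and, in smooth muscle cells, 27.7%. The monocyte attractants Ccl2 and Ccl7 were concentrated instead: 20 cells held 95.6% and 96.6% of their UMIs. In sub-cluster 4, whose median depth was 5059 UMIs and whose leading genes were Apod, Ccl7, Ifi203 and Ccl2, Ccl2 was at 1873 CPM against 89.99 in the other members. Without sub-cluster 4 the log2 ratios to the other fibroblasts were -0.10 for Ccl2 and -0.29 for Ccl7, from 1.37 and 1.42, and the median of the list was -0.06. Il6 was at 1227 CPM in sub-cluster 4 and the complement factor C3 at 1815, beside pooled values of 265 and 374. Ccl19, a lymphoid chemokine, was at 383 CPM in sub-cluster 3 and 137 in the pooled cells, against 62.7 in the other fibroblasts.

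Several contractile genes were also higher than in the other fibroblasts pooled, at levels far below smooth muscle. Of 13 list genes past 10 CPM, 5 were higher by 2-fold or more (Mylk, Itga8, Tpm2, Lmod1 and Tagln), none was lower, and the median log2 ratio was 0.64. Itga8, an integrin chain, was at 120.4 CPM against 39.5 in Pi16-positive cells and 1068 in smooth muscle cells. Tagln (transgelin) was at 1172 against 537 and 21294 CPM, and Acta2 at 922 against 516 and 29247. The Comp- or Chad-positive fibroblasts, at 898 CPM of Tagln and 829.5 of Acta2, were close to the Pi16-negative cells. The calponin Cnn1 was at 9.68 CPM against 6.52, and Actg2 and Kcnmb1 were at 0.830 and 0 CPM, while smooth muscle cells had 1596, 373 and 162. Without the 14 cells of sub-cluster 6 the median of the list was 0.56, Itga8 stood at 1.26 and Tagln at 0.75. The log2 ratio of Acta2 went from 0.77 to 0.36 without those cells. Without sub-cluster 2, Tagln stood at 0.65. Myh11 was limited to 2 UMIs by the gate, which bears on all of these genes. Of 7 pericyte markers past 10 CPM, 3 were higher by 2-fold or more (Notch3, Cox4i2 and Rgs5) and none was lower. Cox4i2 and Rgs5 fell below 2-fold without sub-cluster 3, where the pericyte markers summed to 897 CPM, and Rgs5 had no UMI in sub-clusters 4 and 5. Comp- or Chad-positive fibroblasts had 109.8 CPM of Cox4i2 against 94.9 in the Pi16-negative cells.

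Of 21 collagens, 1 was higher (Col6a6) and 1 lower (Col12a1) by 2-fold or more, with a median log2 ratio of -0.09. Over all 7900 genes past 10 CPM, 2.11% were higher and 1.89% lower, the background for every list against the other fibroblasts. Counts as small as these were not read as a result about the list. Col1a1 was at 5033 CPM against 3883 in Pi16-positive cells. Of 20 elastic fibre genes, 5 were lower (Emilin2, Fbln2, Mfap5, Fbn1 and Efemp1) and 1 was higher, Emilin1, at 209 against 93.1 CPM. Emilin2, Mfap5 and Fbn1 were also in the Pi16-type list, as were Cd55, Igfbp6, Sfrp4 and Sema3c, which other lists below count as lower. These lists are thus not separate from it. Fibrillin 1 (Fbn1), the backbone of microfibrils, was at 339 against 867 CPM, and elastin itself (Eln) at 1984 against 2867. The small proteoglycan Fmod was higher at 459.8 against 178 CPM, although Comp- or Chad-positive cells had 534, and Aspn was lower at 186 against 381, the only 2 of 10 in that list past 2-fold. Of 30 matricellular and protease genes, 1 was higher (Postn) and 6 were lower, Fn1 and Has1 among them. Basement membrane genes split evenly, with Npnt and Nid2 higher and Nid1 and Lama4 lower among 15.

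Secreted signals and their antagonists were mixed. Of 15 Wnt modulators, Rspo3, Wif1 and Frzb were higher by 2-fold or more and Sfrp4 and Wisp2 lower. Frzb, a Wnt-binding antagonist, was at 141 CPM against 48.7 in Pi16-positive and 168 in Comp- or Chad-positive cells. Rspo3, a Wnt agonist, was at 49.2 against 9.75, with 171 in sub-cluster 3. Among 12 genes of the IGF axis, Igfbp3 and the protease Pappa were higher and Igfbp5, Igfbp6 and Stc2 lower, so the binding proteins went both ways. Of 28 growth factors and guidance genes, 4 were higher (Angpt2, Ptn and Gas6 among them) and 3 lower (Sema3c, Angptl1 and Angptl7). Gas6, a ligand of the TAM receptors, was at 1808 CPM against 893. Of 29 genes of the BMP and TGF-beta pathways, Id4 and Gdf15 were higher and none was lower, beside 2.11% higher and 1.89% lower over all genes.

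Transcription factors split as well. Of 32 fibroblast factors past 10 CPM, Tbx20, Gata4 and Snai2 were higher by 2-fold or more, and Ebf2, Osr1, Creb5 and Prrx2 were lower. Gata4, a cardiac GATA factor, was at 33.5 CPM against 7.17 in Pi16-positive cells and 84.1 in sub-cluster 3. Ebf2, a factor of mesenchymal and fat precursors, was at 13.3 against 70.6 CPM. Immediate early and heat shock genes, which dissociation can raise, had none of 21 past 2-fold in either direction in the pooled cells. Their median log2 ratio was -0.05, with Fos at 3198 against 3313 CPM. Some of them differed among the sub-clusters. Ier3 was at 957 CPM in sub-cluster 2 against 364 in the other members, and Nr4a2 at 63.6 in sub-cluster 1 against 372. None of 11 steroid response and metallothionein genes and none of 4 cell cycle genes passed 2-fold. Over all genes past 10 CPM only 2.11% were higher and 1.89% lower. Complement genes had 3 higher (Clu, C2 and Cd59a) and 3 lower (Cd55, C7 and Cfb) of 13. Clu fell below 2-fold without sub-cluster 3, and C2 was at 163 CPM in sub-cluster 4 against 17.6 in the other members. C2 and Cfb overlap an annotated readthrough gene on the same strand, so their counts are uncertain. Lipid and retinoid genes had 3 higher (Apoe, Apod and Fabp5) and 2 lower (Aldh1a3 and Ptgs1) of 26. Apod rested on sub-cluster 4, at 578 CPM with a UMI in 17.2% of its 58 cells, against 5.78 CPM in the other members and 22.7 in Pi16-positive cells. Fmod and Cilp were the only ones past 2-fold among cartilage and tendon genes, 1 each way of 6. The 2 kinds of other fibroblast differed here. Against Pi16-positive cells, 4 of 6 were higher (1500015O10Rik, Scx, Fmod and Sox9) and Cilp was lower, with a median log2 ratio of 1.26. Against Comp- or Chad-positive cells, which cartilage genes chose, 6 of 9 were lower and 0 higher, with a median of -2.26. The activated fibroblast list had 3 higher (Postn, Runx1 and Tagln) and 4 lower (Spp1, Fn1, Cthrc1 and Cilp) of 13. Postn reversed without sub-cluster 3.

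**Figure D4:**
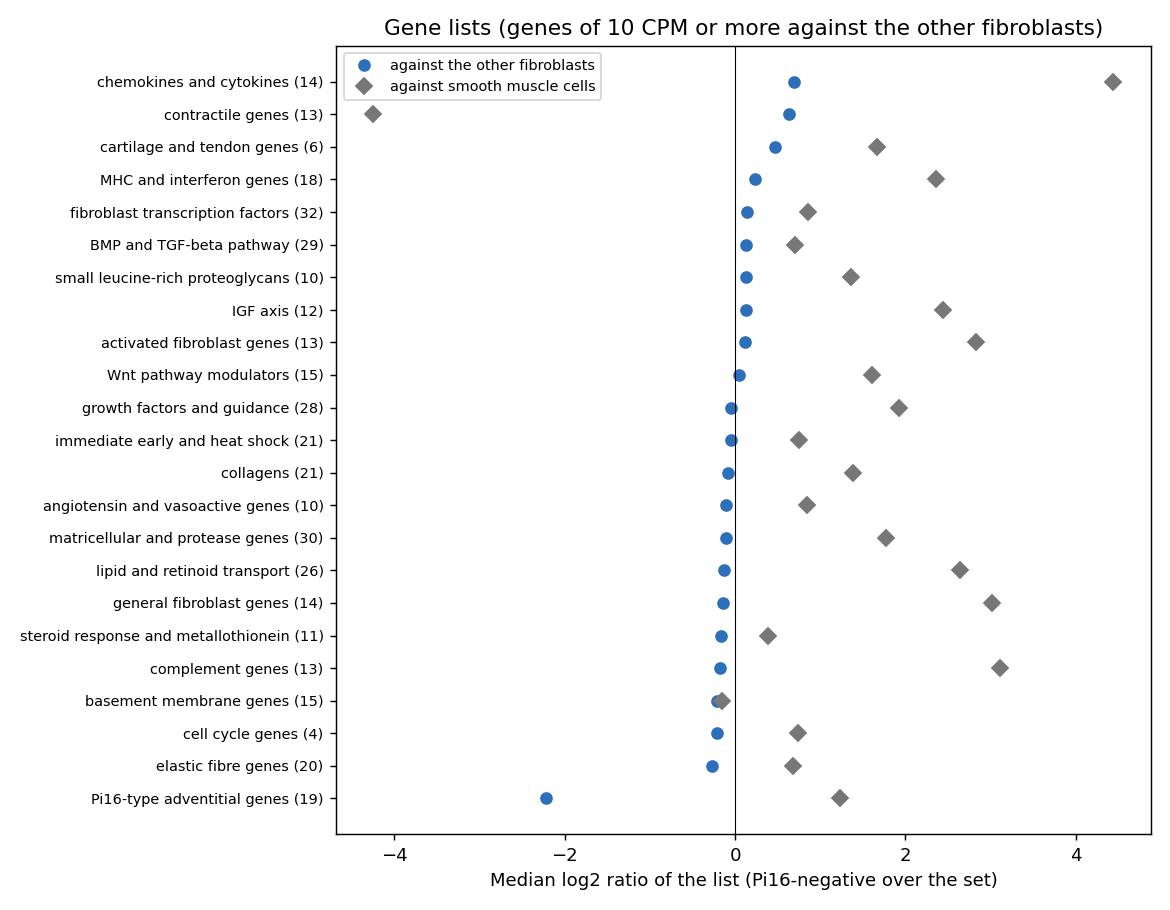
Median log2 ratio of each gene list, Pi16-negative cells over the other fibroblasts (circles) and over smooth muscle cells (diamonds) of the SHF baseline library, with the number of list genes past 10 CPM against the other fibroblasts in parentheses. Against the other fibroblasts the Pi16-type adventitial genes stand apart at -2.22, and against smooth muscle cells the contractile genes at -4.25.

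Set against the Comp- or Chad-positive fibroblasts alone, the order changed. Cpz, a Wnt-binding carboxypeptidase, was at 162 CPM against 34.7 (log2 ratio 2.20), and the lipid carrier Fabp5 at 84.4 against 18.3 (2.14). Igfbp3, Angpt2 and Tnnt2 completed the 5 highest. The 5 lowest were Spp1 (osteopontin) at 4.43 against 197 CPM, Cilp2 at 1.94 against 104, Cytl1 at 63.6 against 1282, Ly6c1, and 1500015O10Rik at 339 against 2875. Cilp2 and Cytl1 are known from cartilage, as are Comp and Chad, which chose the comparison cells. 1500015O10Rik was higher than in Pi16-positive cells, which had 74.5 CPM. Wif1 was the gene furthest above the Pi16-positive cells by the same choice, at 275 against 25.7 CPM, yet below the Comp- or Chad-positive cells at 725. Of 7913 genes past 10 CPM in this comparison, 154 (1.95%) were higher and 107 (1.35%) lower by 2-fold or more. The lists stood differently here: 1 of 13 contractile genes was higher (Itga8), and none of 7 pericyte markers, 16 Wnt modulators or 10 small proteoglycans was. Lower were Cspg4 of the pericyte markers, Wif1 of the Wnt modulators, and Epyc and Aspn of the proteoglycans. Of 14 chemokines and cytokines, 9 were higher and 1 lower.

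Against smooth muscle cells the differences were wider. Of 2776 genes past 50 CPM, 403 (14.5%) were higher and 256 (9.22%) lower by 2-fold or more; with a minimum of 10 CPM the counts were 1044 (13.5%) and 522 (6.76%) of 7718. Under TMM scaling, which moved the median of all genes by -0.30, the counts were 281 higher and 368 lower, so 43.3% instead of 61.2% of the genes past 2-fold were higher. The genes furthest above were Igfbp3 (log2 ratio 7.23), Cygb (5.95), Abca8a (5.95), the antioxidant enzyme Gpx3, the matrix adhesion protein Tgfbi, C3, Ahsg and Fmod. Gpx3 was at 485 CPM against 6.92 and C3 at 374 against 5.37. The genes furthest below included Actg2, Kcnmb1, Cnn1, Igfbp2, Optc, Cbr2 and Pcp4l1. Cnn1 was at 9.68 against 1596 CPM, while Igfbp2, at 0.830 against 261 CPM, had a UMI in 16.2% of thinned smooth muscle cells. All 16 contractile genes past 10 CPM were lower (median log2 ratio -4.25), and all 14 chemokines and cytokines were higher (4.44). The smooth muscle and fibroblast gates set part of this contrast, and 213 of the 2303 smooth muscle cells had a UMI of Ptprc or Pecam1. The mitochondrial share differed too, with medians of 4.42% in Pi16-negative cells and 7.34% in smooth muscle cells.

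The same gate was then applied to the AngII libraries, which had no part in choosing the baseline cells. It found 219 Pi16-negative cells of 2398 fibroblasts in the SHF AngII library (9.13%, 8.01 to 10.4%) and 87 of 769 in the CNC AngII library (11.3%, 9.16 to 13.8%). Against the other fibroblasts of their own library, 49 (1.87%) and 28 (1.07%) of 2615 genes were higher and lower by 2-fold or more in the first, and 26 (1.01%) and 21 (0.815%) of 2577 in the second. Lineage, treatment and library differ together from the baseline library for the CNC cells, and treatment and library for the SHF cells, so these cannot be told apart.

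Most genes lower in the baseline cells were lower again. Of 47 such genes past 50 CPM in the SHF AngII library as well, 45 had the same direction and 17 of them passed 2-fold; in the CNC AngII library it was 44 of 46, with 10 past 2-fold. Over all genes past 50 CPM in both, 1575 of 2310 (68.2%) had the same direction as at baseline in SHF AngII and 1464 of 2252 (65.0%) in CNC AngII. Of all genes below 0 at baseline, 62.6% and 65.3% were below 0 again in the SHF and CNC AngII libraries. The same gate chose the cells in each library, so genes that go with Pi16 had to be lower in each. Among the 47 and 46 genes lower by 2-fold or more at baseline, Efemp1 and Osr1 were the exceptions in both libraries. Osr1 was only just above 0 in CNC AngII, at 0.011. Igfbp5 had log2 ratios of -3.05 in the baseline cells, -2.15 in the SHF AngII cells and -2.47 in the CNC AngII cells. Ly6a had -2.06, -2.12 and -1.71, and Mfap5 -2.37, -1.62 and -1.27. Fn1 was past 2-fold at baseline only: its ratios were -2.55, -0.33 and -0.40, with 78.9 CPM in the baseline cells and 583 and 560.3 in the AngII ones.

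Genes higher at baseline repeated in part. Of 34 past 50 CPM in the SHF AngII library too, 31 had the same direction and 17 passed 2-fold; in the CNC AngII library it was 23 of 29, with 7 past 2-fold. Of all genes above 0 at baseline, 76.2% and 64.6% were above 0 again in the 2 libraries. Among the 34 and 29 genes higher by 2-fold or more at baseline, Postn, Ccl19 and Ccl7 had ratios below 0 in both AngII libraries. In CNC AngII the counting intervals of Postn (-0.089) and Ccl7 (-0.032) included 0. Vcam1, Ptn and Ccl2 did so in the CNC AngII library. Sost had log2 ratios of 1.78, 1.79 and 1.97 in the SHF baseline, SHF AngII and CNC AngII libraries. Itga8 had 1.55, 2.23 and 2.22, Angpt2 2.45, 2.90 and 1.22, and Fmod 1.16, 1.12 and 1.35. Gucy1a3 and Trf had 2.59 and 2.11 in SHF AngII, and 0.77 and 1.16 in CNC AngII. The 34 and 29 genes past 50 CPM did not include Gucy1a3, Trf or Angpt2, and only the 29 included Sost. Apoe was at 1814 against 612 CPM in SHF AngII and 1292 against 695 in CNC AngII, far below its 11659.9 against 3559 at baseline, with log2 ratios of 1.57 and 0.89. Igfbp3 was at 35.2 and 14.5 CPM in the Pi16-negative cells of the AngII libraries, beside 418 at baseline. Across 2310 genes the baseline and SHF AngII ratios had a Pearson correlation of 0.69, and across 2252 genes the baseline and CNC AngII ratios had one of 0.56; genes are not independent replicates, and the same gate genes set both sides.

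Tbx20, Wif1 and Postn, which were high in sub-cluster 3, were not past 2-fold above in either AngII library. Of the other genes high in it, Cox4i2 had log2 ratios of 0.83 and -0.34, Pdlim3 0.77 and -0.53, and Rgs5 1.01 and 0.38, in SHF AngII and CNC AngII. Tbx20 had log2 ratios of 0.25 (-0.56 to 1.08) in SHF AngII and -0.21 (-1.49 to 0.81) in CNC AngII, at 4.98 and 7.71 CPM in the Pi16-negative cells. Wif1 was at 7.30 and 4.82 CPM there, beside 275 at baseline. UMIs of both Wif1 and Tbx20 were in 1 of 219 Pi16-negative cells of SHF AngII (0.457%, 0.0116 to 2.52%). In CNC AngII they were in 0 of 87, which allows a share of cells with both UMIs of up to 3.45% (3 cells of the total), or 4.15% by the exact interval. The AngII cells were deeper, with medians of 11421 and 10539 UMIs. Postn was at 282 against 375 CPM in SHF AngII and 359 against 382 in CNC AngII, so both sets of fibroblasts held it there.

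**Figure D5:**
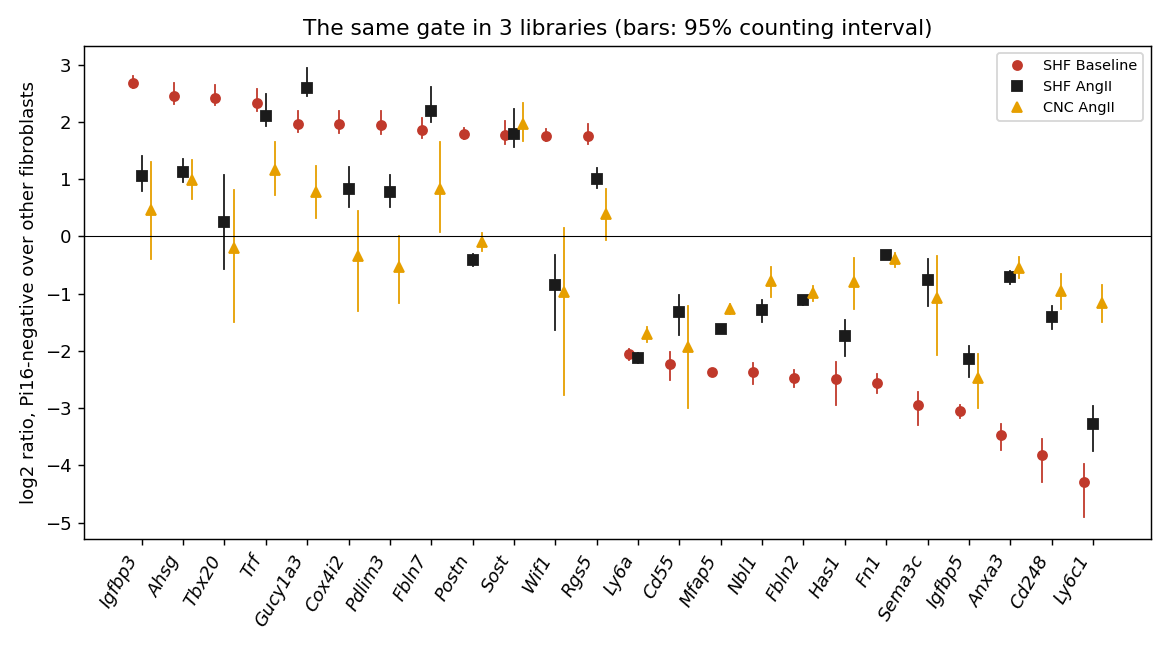
Log2 ratio of the Pi16-negative over the other fibroblasts for the 12 genes furthest above and the 12 furthest below at SHF baseline, in the SHF baseline, SHF AngII and CNC AngII libraries; bars are 95% counting intervals. Ly6c1 and Igfbp5 are below 0 in all 3 libraries and Sost above 0 in all 3, whereas Wif1 and Postn are above 0 at baseline only.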

How the data were processed

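The deposited tables hold raw UMI counts per gene and barcode, with no normalisation, and were used as deposited. Reads went through fastp, STAR 2.5 and HTSeq 0.6.1 on mm10, per the submitters' processing notes; how barcodes were chosen, any cell annotation and doublet removal are not given in the sources used here. The tables have 18760 gene rows (baseline, older gene names, 13 repeated names left out) and 32285 (each AngII library); 526 of the names compared were matched by synonym in the RefSeq gene table.

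UMIs were summed over cells (CPM) and compared as log2 ratios with 1 CPM added; past 2-fold means an absolute log2 ratio of 1 or more, among genes with a mean of 50 CPM or more (lists, 10), gate genes left out. Intervals are exact Poisson (CPM), exact binomial (shares) and conditional binomial (ratios, without added CPM). With 1 library per group there is no test. Ratios were checked on simulated data. Sub-clusters used scanpy 1.11.5 and Leiden (leidenalg 0.10.2): 2000 variable genes, 20 components, 15 neighbours, resolution 0.5. TMM factors came from edgeR 4.0.16 in R 4.3.3.

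The cells, gene lists and rules were chosen with earlier results of these data known. Named genes were the cell markers, the 12 highest and 12 lowest ratios to all other fibroblasts, 5 each way to each kind of other fibroblast and 8 each way to smooth muscle cells (a UMI in 10% or more of the higher set, no mitochondrial or ribosomal protein genes), the 10 genes with the most UMIs, 4 leading genes of each sub-cluster and genes of the 34 lists, 11 of them cell type markers. A few genes that this choice named are not reported here. Rbp4, Vcan and Prg4 in sub-cluster 3 and the pair of Wif1 and Tbx20 were chosen after their values were seen. Scrublet marked 233 of 9041 cells (2.58%). Alternatives changed the cell filters, doublets, depth, Pi16 limit, scaling, added CPM and gene minimum.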

Additional observations from a re-analysis of the deposited data

Results flagged for a closer look

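The search covered the genes furthest from the other fibroblasts and some added genes. For 4 of them past 2-fold in the baseline Pi16-negative cells, the ratio to the other fibroblasts had the opposite sign in both AngII libraries. Outside that search, Efemp1 and Osr1, lower by 2-fold or more at baseline, also had the opposite sign in both. Their log2 ratios were 0.13 and 0.41 in SHF AngII, and 0.62 and 0.011 in CNC AngII. The difference between libraries was not tested. Wif1 had a log2 ratio of 1.76 at SHF baseline, -0.86 in SHF AngII (-1.63 to -0.33) and -0.98 in CNC AngII (-2.77 to 0.16). Postn had 1.79, -0.41 (-0.51 to -0.31) and -0.089 (-0.25 to 0.065). Ccl19 had 1.12, -0.16 (-0.27 to -0.058) and -0.20 (-0.41 to -0.0024). Ccl7 had 1.42, -0.53 (-0.60 to -0.46) and -0.032 (-0.17 to 0.11). At baseline, Wif1, Postn and Ccl19 were highest in sub-cluster 3, at 1244, 1283 and 383 CPM, and Ccl7 in sub-cluster 4, at 2015 CPM. In the other fibroblasts Ccl7 was at 92.6 CPM in the baseline library and at 739.8 and 463 in the SHF and CNC AngII libraries.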

How the results depend on the processing

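The share of Pi16-negative cells was 12.8%, and stayed inside its counting interval with at most 5% mitochondrial UMIs, 1000 or more genes or doublets left out. It was 10.9% in cells with 10000 or more UMIs, 16.1% in cells thinned to 5000 UMIs and 19.8% with Pi16 at 0 or 1. The count of genes past 2-fold, 109 against the other fibroblasts and 659 against smooth muscle cells, became 316 and 1566 with a minimum of 10 CPM and 817 and 3024 with no minimum, which tests more genes. It stayed within 1.5 times the main count under every other alternative run, including the 6, chosen after seeing the data, that left out 1 sub-cluster each. Left out in turn, sub-cluster 3 reversed Cd74 (-2.18), H2-Ab1 (-1.35), Postn (-0.53), Tbx20 (-0.22) and Wif1 (-2.69), and sub-cluster 4 reversed Ccl2 (-0.10) and Ccl7 (-0.29), all as log2 ratios to the other fibroblasts. Over 65 gene ratios and 16 alternatives, 655 of 1040 values stayed inside the main counting interval, 378 left it, and those 7, of genes past 2-fold, reversed. A further 4 values, of Abca8a and 1500015O10Rik, which were under 2-fold, changed sign among those 378. Of 816 list medians, 529 stayed within 0.1 of the main value. No paired analysis was possible because each group has 1 library. Depth limits mainly sub-cluster 6, with 14 cells and 136135 UMIs.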

Other observations

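Ren1, which encodes renin, the enzyme at the head of the angiotensin cascade, was the gene of the angiotensin and vasoactive list furthest below the other fibroblasts. The baseline Pi16-negative cells held 5 of its UMIs (1.38 CPM), against 68.6 CPM in Pi16-positive, 80.0 in Comp- or Chad-positive and 0.989 in smooth muscle cells. In cells thinned to 5000 UMIs, 0.307% of Pi16-negative and 3.55% of Pi16-positive fibroblasts had a Ren1 UMI, with 0.177% in smooth muscle cells. In the SHF AngII library Ren1 was at 0.996 CPM, from 3 UMIs, against 33.9 in the other fibroblasts (log2 ratio interval -7.37 to -3.54), and in the CNC AngII library it had no UMI, against 16.2 CPM. Edn1, which encodes the vasoconstrictor endothelin 1, was at 9.41 CPM at baseline against 47.9 in Pi16-positive cells, at 11.3 against 18.5 in SHF AngII, and at 33.8 against 31.7 in CNC AngII. Of 10 genes of that list past 10 CPM, Ren1 and Edn1 were lower by 2-fold or more and Gucy1a3 was higher.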
